A study of Arabidopsis thaliana with 12 samples.

Results

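The GH3 genes encode acyl acid amido synthetases, and 4 of them, *GH3.1* (AT2G14960), *GH3.3* (AT2G23170), *WES1* (AT4G27260, also called *GH3.5*) and *GH3.17* (AT1G28130), were followed across 12 *Arabidopsis thaliana* arrays. They were chosen by name from the probe annotation, as 4 of the 13350 genes that it lists alone for at least 1 of the 22810 probe sets. Each is read by 1 probe set, 266611_at for *GH3.1*, 245076_at for *GH3.3*, 253908_at for *WES1* and 259596_at for *GH3.17*. The choice used no measured value, but it was made with earlier results of these data known.

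The seedlings were the Columbia wild type (WT) or the *arf2-6* line of the same ecotype, which carries a mutation in *ARF2*. They were grown for 7 days in shaken liquid Murashige and Skoog medium with 1.5% sucrose, in cycles of 16 h light and 8 h dark. For the last 2 h, at 24 °C, both lines were given the auxin indole-3-acetic acid (IAA) at 5 µM (groups WT_IAA and arf2-6_IAA) or only its solvent, ethanol (WT_control and arf2-6_control). There were 3 arrays in each of the 4 groups. The labels do not say whether replicates were grown apart, so the spread behind every p-value may be technical. RNA came from whole seedlings, so more RNA per cell and more cells with the transcript cannot be told apart. The root beta-glucosidase gene *PYK10* (12.2 to 12.7 log2) and the leaf Rubisco activase gene *RCA* (12.3 to 12.6 log2) were both well above the lowest value on all 12 arrays.

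Auxin acts within minutes to hours by causing the degradation of Aux/IAA repressors, which frees auxin response factors to switch on target genes. GH3 genes are among the classic early targets. Their enzymes join IAA to amino acids such as aspartate and glutamate, which takes free hormone out of the active pool, so the family is known for negative feedback on auxin level. *ARF2* encodes a response factor of the class regarded as repressors. The GH3.5 enzyme (WES1) also accepts salicylic acid, and GH3.17 is known for conjugating IAA to glutamate.

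Values are the authors' log2 signals, which stop at 5.64 log2 (a signal of 50). A gene at that value has only an upper limit, and a difference against it is written as at least N-fold. Between 12948 and 13109 probe sets lay above it on each array, and array medians ran from 6.16 to 6.22 log2. Array 3 of WT_control and array 2 of arf2-6_control stood apart from their own replicates in a shared direction (r = 0.633 of their deviations over 14215 probe sets), so IAA effects are also given without them.

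*GH3.3* and *WES1* went from low signal without IAA to strong signal with it, *GH3.1* went from the lowest value to a moderate signal, and the *GH3.17* signal was moderate throughout. In the untreated wild type *GH3.3* measured 7.41, 6.98 and 6.29 log2, and with IAA 12.87, 12.82 and 12.34 log2. In *arf2-6* it measured 7.43, 6.18 and 6.49 log2 without IAA and 12.56, 12.61 and 12.62 log2 with it. The 6 treated arrays all lay far above the 6 controls, and the nearest treated and control arrays of the wild type were still 4.93 log2 apart, those of *arf2-6* 5.13 log2. The rise of 5.78 log2 in the wild type (95% interval 5.08 to 6.48, adjusted p = 7.0e-07) and that of 5.90 log2 in *arf2-6* (5.19 to 6.60, adjusted p = 7.6e-07) were the largest of the 14215 probe sets tested in each genotype. On a linear scale the interval ran from 33.8-fold to 89.6-fold in the wild type and from 36.6-fold to 97.1-fold in *arf2-6*.

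*WES1* stood at 7.25, 7.59 and 6.16 log2 in WT_control and at 11.77, 11.15 and 10.99 log2 in WT_IAA. In *arf2-6* it stood at 6.98, 6.29 and 7.50 log2 without IAA and at 11.39, 11.62 and 11.66 log2 with it. No treated array overlapped a control array in either genotype. The rise was 4.30 log2 in the wild type (SE 0.37, adjusted p = 2.1e-05) and 4.63 log2 in *arf2-6* (SE 0.37, adjusted p = 1.6e-05), and 2 tested probe sets rose more in each genotype.

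*GH3.1* lay at the lowest value on all 6 control arrays. With IAA it reached 8.26, 8.40 and 8.41 log2 in the wild type and 8.37, 8.54 and 8.71 log2 in *arf2-6*. The treated means were thus at least 6.55-fold above the controls in the wild type (adjusted p = 1.0e-07) and at least 7.44-fold in *arf2-6* (adjusted p = 4.1e-08), and the lowest treated arrays at least 6.14-fold and 6.62-fold. It passed the filter on low signals through its treated arrays alone. Controls without spread lower the error estimated for this gene, and the true rise may be larger than these bounds.

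*GH3.17* measured 7.70, 8.20 and 8.46 log2 in WT_control and 8.32, 8.02 and 8.10 log2 in WT_IAA. In *arf2-6* it measured 7.70, 7.86 and 7.76 log2 without IAA and 7.68, 8.02 and 7.93 log2 with it. Treated and control arrays overlapped in both genotypes. The IAA difference was 0.03 log2 in the wild type, with a 95% interval of -0.36 to 0.41, and 0.10 log2 in *arf2-6*, with an interval of -0.28 to 0.49. A rise above 1.33-fold in the wild type or 1.40-fold in *arf2-6* lies outside these intervals.

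**Figure D1:**
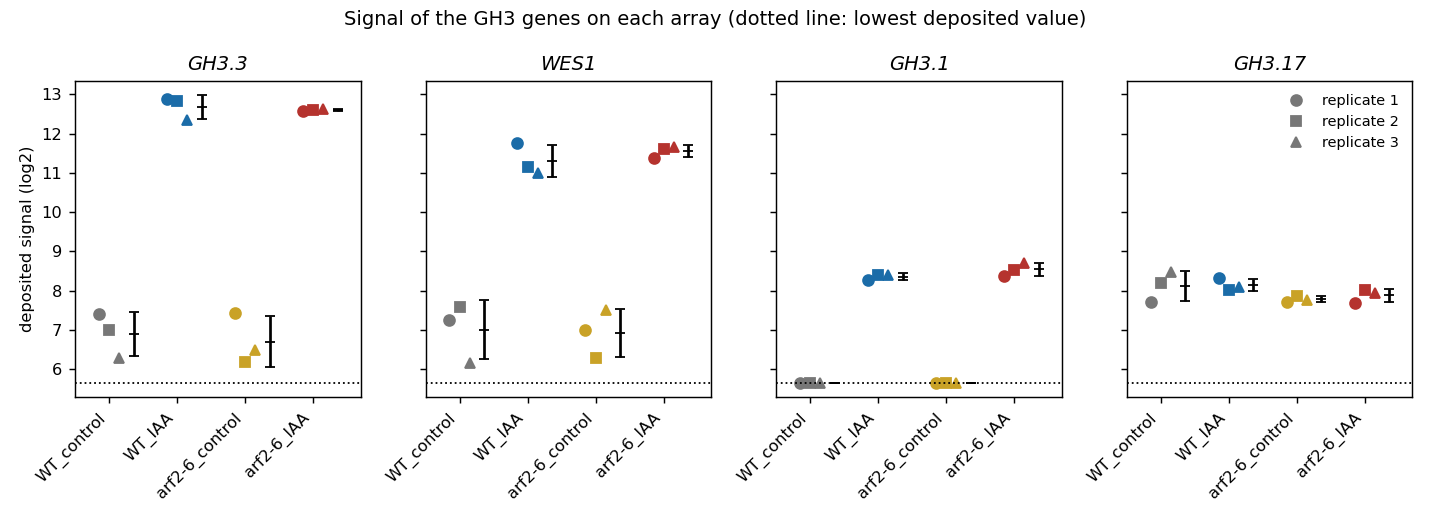
Deposited log2 signal of each GH3 gene on each of the 12 arrays, by group. Points are arrays (shape gives the replicate number), black bars are the mean ± SD of 3 arrays, and the dotted line is the lowest deposited value, 5.64 log2. *GH3.3*, *WES1* and *GH3.1* separate treated from control arrays in both genotypes and *GH3.17* does not.

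In all, 3 of the 4 GH3 genes rose with IAA in the wild type, against a background of 4.64% of tested probe sets called as higher, and 3 of 4 rose in *arf2-6*, against 3.75%. *GH3.1*, at the lowest value on every control array, passed the filter through its treated arrays alone. It could only be level or higher with IAA, and it is among the 3 in each count of this paragraph. A call required an adjusted p under 0.05 in limma's moderated test over all 14215 probe sets. The median IAA difference of the 4 genes, which rests in part on the bound of *GH3.1*, was at least 3.51 log2 in the wild type and at least 3.76 log2 in *arf2-6*, where the median of all tested probe sets was 0.00 and -0.02 log2. Averaged over genotypes, an exact permutation test that exchanged labels within each genotype gave p = 0.005 for *GH3.3*, *WES1* and *GH3.1*, the smallest its 400 regroupings allow (two-sided). The same exact permutation test gave p = 0.635 for *GH3.17*, whose averaged difference was 0.07 log2. In the averaged limma contrast 3 of the 4 were called as higher, against 6.83% of probe sets. All 3 treated arrays lay above all 3 controls for 3 of the 4 genes in each genotype, which held for 10.9% of probe sets in the wild type and 11.3% in *arf2-6*.

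**Figure D2:**
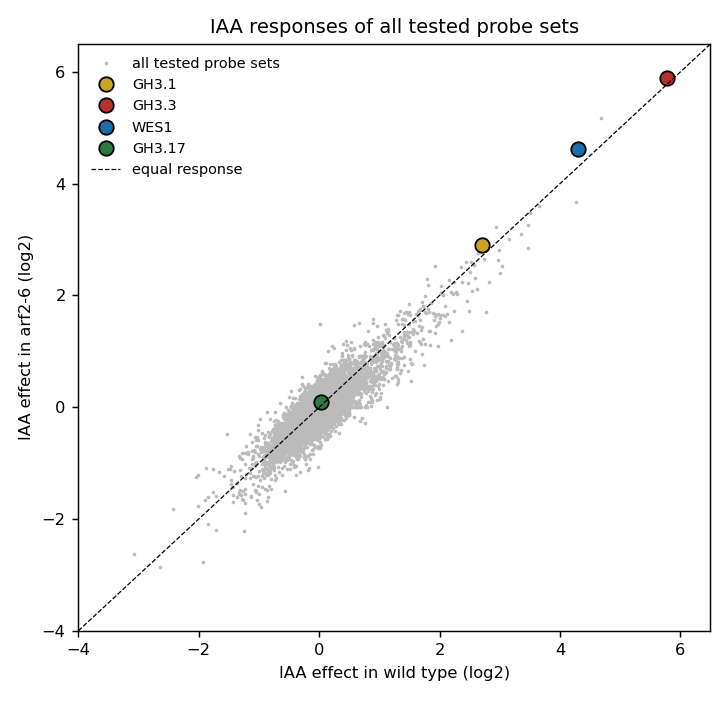
IAA effect in *arf2-6* (vertical, log2) against IAA effect in the wild type (horizontal, log2) for the 14215 tested probe sets, with the GH3 genes marked and the dashed line at equal response. *GH3.3* lies at the upper end of both axes (5.78 and 5.90 log2), *WES1* follows at 4.30 and 4.63 log2, *GH3.1* is a lower bound, and *GH3.17* lies in the central cloud.

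The sizes of the 3 rises were unequal. *GH3.3* rose more than *WES1* by 1.37 log2 when the ratio of the 2 genes was taken on each array and averaged over genotypes. That log2 ratio ran from -0.61 to 0.15 in WT_control and from 1.10 to 1.67 in WT_IAA, and from -1.02 to 0.45 in arf2-6_control and from 0.96 to 1.18 in arf2-6_IAA. Control and treated ratios did not overlap in either genotype. The difference was 1.48 log2 in the wild type and 1.27 log2 in *arf2-6* (exact permutation p = 0.005, the smallest possible, also 0.005 after adjustment over 3 pairs of genes). The other pairs were *GH3.3* with *GH3.17* (5.77 log2) and *WES1* with *GH3.17* (4.40 log2), at the same p. For these other pairs the values given above had already fixed that p, so it adds no evidence. All 3 pairs were chosen after the values were seen, which the adjustment does not cover. The differences are unequal changes of 2 probe sets, and whether the probe sets respond equally to equal amounts of RNA was not tested. *GH3.1* was left out of these ratios because its rise is only a bound.

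No GH3 gene was called between *arf2-6* and the wild type. Of the 4 genes, 0 were called between genotypes without IAA, against 0.858% of all tested probe sets, and 0 with IAA, against 8.79%. Without IAA *GH3.1* could not have been called, as it lay at the lowest value in both control groups. The lowest unadjusted limma p of the 4 was 0.074 without IAA, for *GH3.17*, at rank 2675 of 14215 by p. With IAA it was 0.11, for *GH3.1*, at rank 4979, with an error lowered by its constant controls. For *GH3.3* the difference of *arf2-6* from the wild type was -0.19 log2 without IAA (95% interval -0.90 to 0.51) and -0.08 log2 with IAA (-0.78 to 0.63). For *WES1* it was -0.07 log2 (-0.89 to 0.74) and 0.25 log2 (-0.56 to 1.07). The arrays of the genotypes overlapped in each of these comparisons.

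*GH3.1* could be compared between genotypes only with IAA, since both control groups lay at the lowest value. There *arf2-6* was 0.18 log2 higher (SE 0.11, 95% interval -0.05 to 0.41, adjusted p = 0.32), with overlapping arrays. The fit shares its spread with the constant control arrays, so this interval may be too narrow. The SD within groups was 0.13 log2 on IAA arrays and 0.09 log2 over all arrays.

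*GH3.17* was lower in *arf2-6* by 0.35 log2 without IAA (95% interval -0.73 to 0.04, adjusted p = 0.39) and by 0.27 log2 with IAA (-0.66 to 0.11, adjusted p = 0.37), and neither difference was called. With IAA its highest *arf2-6* array (8.0205 log2) lay just under its lowest wild-type array (8.0224 log2), a separation in this direction that 18.6% of tested probe sets showed. Without IAA the arrays overlapped. Averaged over treatments the difference was -0.31 log2 (95% interval -0.58 to -0.04, unadjusted p = 0.029), and it missed the threshold over all probe sets (adjusted p = 0.12). Averaged over treatments 0 of the 4 genes and 15.9% of tested probe sets were called. The exact permutation test within treatments, run for each of the 4 genes, gave an unadjusted p = 0.045 for it and 0.30 to 0.735 for the others. The 0.30 was that of *GH3.1*, whose control arrays do not vary. Leaving out WT_control 1, where *GH3.17* was lowest in its group, gave -0.42 log2 and a call (adjusted p = 0.023). Other measures were also compared between the genotypes with IAA. The root hair expansin genes *EXPA18* and *EXPA7*, the 2 tested root hair markers, were lower in *arf2-6* by 1.54 log2 (value -1.54) and by 0.96 log2 (-0.96), and both were called. Without IAA they were also lower, at -0.90 and -0.66 log2, but not called (limma adjusted p = 0.12 and 0.15). With IAA the reference genes AT4G34270 and *PEX4* lay at -0.34 and -0.12 log2 in *arf2-6* against the wild type, neither called (limma adjusted p = 0.065 and 0.54). Without IAA they lay at -0.02 and -0.12 log2, again not called. *PYK10* and *RCA* lay at -0.16 and 0.01 log2 with IAA, neither called (limma adjusted p = 0.40 and 0.99). The 3' minus 5' difference of control probe sets, which reads how complete the RNA was, came to 0.507 to 0.616 log2 in WT_IAA and 0.423 to 0.489 log2 in arf2-6_IAA. Without IAA it overlapped between genotypes, at 0.407 to 0.588 log2 in WT_control and 0.451 to 0.668 log2 in arf2-6_control. The part of any of these measures in the *GH3.17* values was not tested.

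Whether the IAA response itself depended on the genotype was tested as an interaction, which subtracts the wild-type response from the mutant one. It was 0.12 log2 for *GH3.3* (95% interval -0.88 to 1.11), 0.33 log2 for *WES1* (-0.83 to 1.48) and 0.07 log2 for *GH3.17* (-0.47 to 0.62), each with adjusted p = 1.00. For *GH3.1*, at the lowest value in both control groups, the interaction gives no size of its own. Of the 4 genes 0 were called by limma, where 0.113% of all tested probe sets were. The lowest unadjusted limma p was 0.25 for *GH3.1*, at rank 2963 of 14215 by p, then 0.55 for *WES1*, at rank 7323. The p of *GH3.1* rests on its IAA groups alone, with an error lowered by constant controls. It therefore does not measure a difference of responses. The intervals reach up to a *GH3.3* response 2.16-fold larger and a *WES1* response 2.78-fold larger in the mutant.

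**Figure D3:**
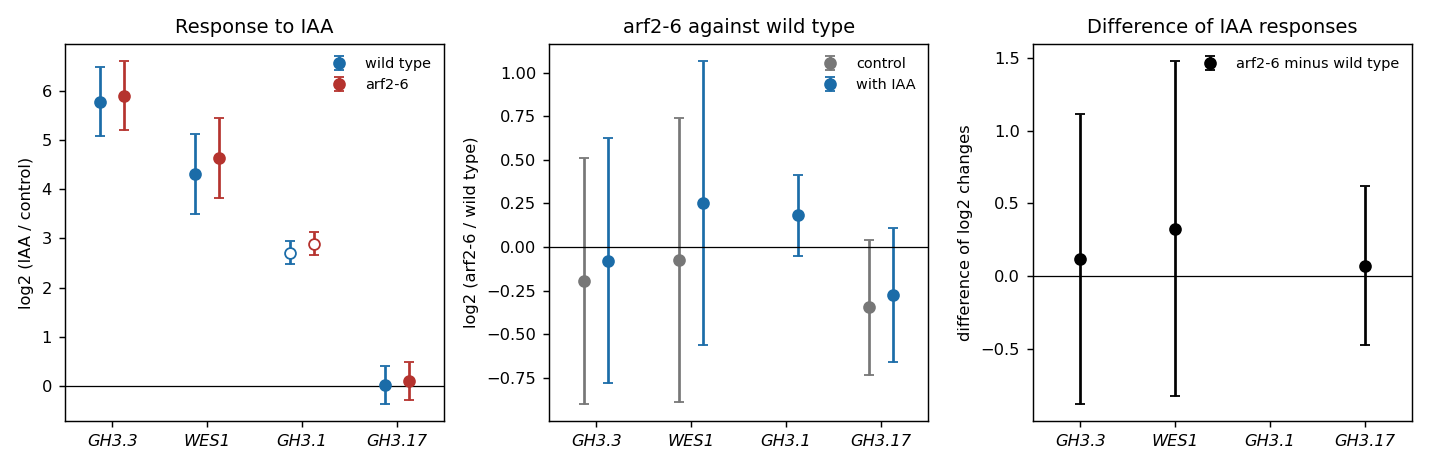
Fitted log2 differences with 95% intervals for each GH3 gene: response to IAA by genotype (left), *arf2-6* against wild type by treatment (middle) and the difference of IAA responses (right). Open circles mark *GH3.1*, whose response is a lower bound, and no value is drawn for it where the controls lie at the lowest value. Intervals of the middle and right panels all include 0.

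The GH3 genes differed in how steady they were between replicates. In controls the SD within groups was 0.61 log2 for *GH3.3* and 0.68 log2 for *WES1*, larger than that of 98.5% and 99.0% of the tested probe sets, whose median was 0.18 log2. With IAA it was 0.21 log2 for *GH3.3* and 0.31 log2 for *WES1*, larger than that of 85.5% and 96.9% of probe sets (median 0.13 log2). *GH3.17* had an SD of 0.28 log2 in controls and 0.17 log2 with IAA.

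On WT_control 3 and arf2-6_control 2, the arrays that stood apart, *GH3.3* and *WES1* were each the lowest of their group. *GH3.3* lay 0.60 log2 below its group mean on WT_control 3 (value -0.60) and 0.52 log2 below on arf2-6_control 2 (-0.52), and *WES1* lay at -0.84 and -0.63 log2 from its means. The largest *GH3.3* deviation of a control array was on another array, arf2-6_control 1, at 0.73 log2 above the mean. *GH3.17* was the highest of its group on both, at 0.34 and 0.08 log2. Of all tested probe sets, 28.6% were lowest in their group on WT_control 3 and 32.9% on arf2-6_control 2, and 42.8% and 41.3% were highest there, as *GH3.17* was. The 3' minus 5' difference, a mean over 6 pairs of *Arabidopsis* control probe sets, was 0.588 log2 on WT_control 3 and 0.668 log2 on arf2-6_control 2, against 0.407 to 0.517 log2 on the other 4 control arrays, and its part in these values was not tested. With both arrays removed (an alternative added once the data had been seen), the IAA rise was 5.48 log2 for *GH3.3* and 3.88 log2 for *WES1* in the wild type, and 5.64 and 4.31 log2 in *arf2-6*, with all 4 still called (adjusted p = 2.6e-05 to 7.7e-05).

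**Figure D4:**
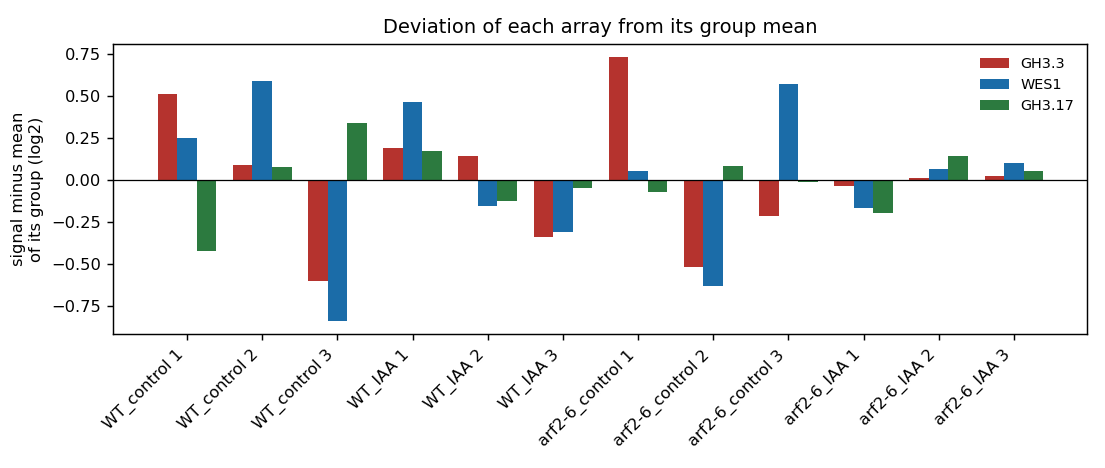
Deviation of each array from the mean of its group (log2) for *GH3.3*, *WES1* and *GH3.17*; *GH3.1* is not drawn because its controls do not vary. On WT_control 3 and arf2-6_control 2 the bars of *GH3.3* and *WES1* point down (-0.52 to -0.84 log2) and those of *GH3.17* up.

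The 7 further family members listed with a single-gene probe set, among them *GH3.9*, never exceeded the lowest value on any of the 12 arrays, so 0 of 7 were tested and their levels have only an upper limit. GH3 genes without such a probe set, for example *DFL1* (*GH3.6*) and *JAR1*, whose enzyme conjugates jasmonate to isoleucine, are not analysed here.

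Among other genes of auxin inactivation, *UGT74D1*, which encodes a glucosyltransferase acting on IAA and its oxidised form, measured 8.12 ± 0.43 log2 in WT_control and 7.95 ± 0.28 in WT_IAA, and 8.45 ± 0.39 and 8.04 ± 0.20 in *arf2-6* (SD, n = 3). Its IAA difference was -0.17 log2 in the wild type and -0.41 log2 in *arf2-6*, neither called by limma (adjusted p = 0.80 and 0.42). *UGT84B1*, another IAA glucosyltransferase gene, lay at the lowest value on every array. These were the 2 genes with a single-gene probe set among the 13 of this list, which thus held 0 called of 1 tested gene in either direction. Of all tested probe sets, 4.64% were called as higher and 3.76% as lower in the wild type, and 3.75% and 4.76% in *arf2-6*. The 1 tested gene says nothing of the list as a whole.

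Of 33 auxin synthesis genes listed, 4 had a single-gene probe set, all flavin monooxygenase genes of the YUCCA family. Among these only *YUC6* exceeded the lowest value on any array. It did so on 2 WT_control arrays and 1 arf2-6_control array, on none with IAA, and was not called. *WAG2*, a kinase gene of auxin transport, was the 1 gene with a single-gene probe set among the 31 of the receptor and transport list. It lay at the lowest value on all 6 controls and at 6.75 ± 0.41 log2 in WT_IAA and 6.39 ± 0.14 log2 in arf2-6_IAA (SD, n = 3), at least 2.16-fold and at least 1.68-fold higher, and it was called in both genotypes. Like *GH3.1* it passed the filter through its treated arrays alone, so it could only be level or higher with IAA.

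Of 29 Aux/IAA repressor genes listed, 7 had a single-gene probe set. Among these 7, *IAA31*, *IAA33* and *IAA34* never exceeded the lowest value and were not tested. *IAA29* and *IAA30* were at that value on all 6 control arrays and *IAA20* on 4 of the 6, so *IAA29* and *IAA30* passed the filter through their treated arrays alone and could not have fallen. Called as higher were 2 of the 7 in the wild type, against 4.64% of all tested probe sets, and 3 of the 7 in *arf2-6*, against 3.75%, counts that the filter helps to set. *IAA29* and *IAA30* were called in both genotypes, *IAA20* in *arf2-6* and *IAA18* only in the average (0.37 log2, adjusted p = 0.038). *IAA20* was also the 1 gene of these lists with a called interaction (fitted at 1.48 log2, adjusted p = 0.028), where 0.113% of all tested probe sets had one. Its WT_control arrays were all 3 at the lowest value, as were 2 of the 3 WT_IAA arrays. A wild-type rise beneath that value would go unseen, so neither the size nor the presence of an interaction is settled. With the 50% of probe sets lowest in mean signal left out, no probe set had a called interaction. *IAA20* averaged 5.64 log2 in WT_control, 5.65 in WT_IAA, 5.72 in arf2-6_control and 7.21 in arf2-6_IAA. That filter may therefore have removed *IAA20* before testing, so the loss of its call is no retest of it.

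The genes with the profile most like each GH3 gene were taken as the 3 with the highest Pearson r of the log2 signal over the 12 arrays, among 7636 tested probe sets listed with a single gene. These are descriptions without a test, since all points share the 4 groups and the same arrays. *GH3.3* was followed most closely by AT3G26760 (r = 0.995), which lay at 5.98 log2 in WT_control and 8.72 log2 in WT_IAA. *HAT2*, a homeodomain-leucine zipper gene (r = 0.992), and *IAA29* (r = 0.992) came next. For *WES1* the first gene was *GH3.3* itself (r = 0.987), before AT3G26760 (0.986) and *IAA29* (0.982). For *GH3.1* they were *IAA29* (0.997), AT2G18010 (0.990), a SAUR gene, and AT3G51410 (0.990), all 3 at the lowest value on every control array like *GH3.1*.

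For *GH3.17* the highest r was lower, 0.857 with *GSTF4*, a phi-class glutathione S-transferase gene, then 0.846 with *MOB1-like* and 0.828 with AT2G19130, and its r with the other 3 GH3 genes was 0.08 to 0.12. The *GSTF4* signal ran at 6.38 and 6.40 log2 in the wild type and 6.11 and 6.15 log2 in *arf2-6*, without and with IAA. By Spearman's rho instead of Pearson's r, 1 of the 3 genes of *GH3.3* and 0 of the 3 of each other GH3 gene stayed among the highest 3.

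**Figure D5:**
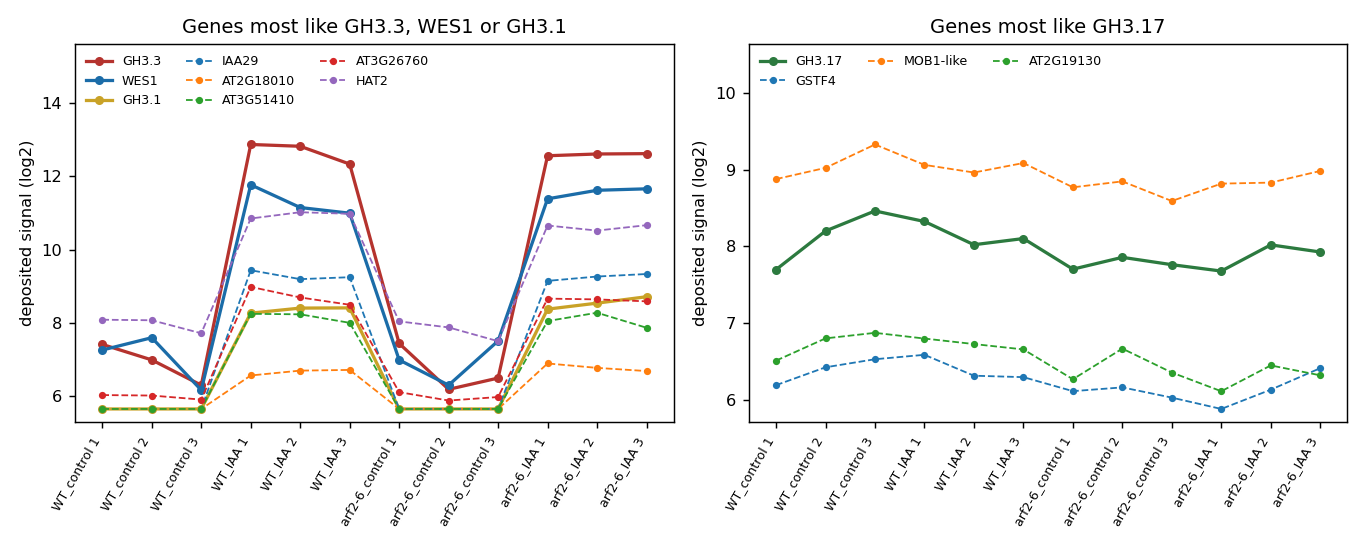
Log2 signal on each of the 12 arrays for *GH3.3*, *WES1* and *GH3.1* with the genes most like them (left) and for *GH3.17* with the genes most like it (right). Solid lines are GH3 genes and dashed lines the other genes. All profiles on the left step up on the 6 IAA arrays, and those on the right do not.

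The genes beside the GH3 genes were read in the same way. Of the 5 protein-coding genes on either side of each GH3 gene in the order of assembly TAIR10.1, 25 had a single-gene probe set and 14 were tested. In the wild type IAA raised 2 and lowered 1 of the 14, where 4.64% of all tested probe sets were called as higher and 3.76% as lower. In *arf2-6* it raised 1 and lowered 1 of the 14, where 3.75% were called as higher and 4.76% as lower. Beside *GH3.1* and *GH3.3*, 0 of 4 tested neighbours were called in either genotype, and their IAA differences ran from -0.19 to 0.14 log2.

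The neighbour that moved most was AT4G27280, second gene after *WES1*, which encodes an EF-hand calcium-binding protein. It measured 8.45, 7.09 and 8.13 log2 in WT_control and 10.19, 10.16 and 9.40 log2 in WT_IAA, and 7.16, 7.28 and 6.95 log2 in arf2-6_control against 9.24, 9.42 and 9.24 log2 in arf2-6_IAA. Treated arrays lay above controls in both genotypes. The rise was 2.03 log2 in the wild type (adjusted p = 0.0014) and 2.17 log2 in *arf2-6* (adjusted p = 9.8e-04). The gene between them, AT4G27270, was called in the wild type at 0.47 log2 (adjusted p = 0.042) and measured 0.08 log2 in *arf2-6*. Near *GH3.17*, AT1G28100 fell by 0.70 log2 in the wild type and by 0.51 log2 in *arf2-6*.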

How the data were processed

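The authors deposited 1 log2 signal for each probe set and array. Their summarisation and scaling are not given in the sources used here. Of 22810 probe sets, 13513 were listed with 1 gene, 503 with several and 8794 with none, and no gene was named from several. A table of TAIR10.1 genes gave current symbols and gene order, and 13436 probe sets matched it.

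All tests across probe sets used limma (version 3.58.1, R 4.3.3) with 1 mean for each group, fitted to 12 arrays with 8 residual degrees of freedom and a trended prior. Tests were two-sided, with Benjamini-Hochberg adjustment. Left out were 64 AFFX probe sets and, of the others, the 30% lowest in mean signal, which with ties were the 8531 at the lowest value on every array. The 4 genes all passed. The number of arrays limits the precision. The fit was checked on simulated data. Plots used Python 3.11.15.

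The 4 genes and the lists were chosen with earlier results of these data known. The genes named were those 4, all tested genes of lists with 1 or 2, up to 2 called genes of longer lists, and the 3 most alike; *IAA18*, *IAA20*, the untested Aux/IAA genes and the neighbouring genes were added after their values were seen, as were the ratios of 2 GH3 genes. Markers of root hair, leaf and reference genes gave no call for IAA in either genotype (0 of 2, 0 of 3 and 0 of 2). Of all tested probe sets, 4.64% were called as higher and 3.76% as lower in the wild type, and 3.75% and 4.76% in *arf2-6*. Lists this short cannot show that such genes were steady.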

Additional observations from a re-analysis of the deposited data

How the results depend on the processing

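Other filters, scalings, variance priors, array weights, the replicate block, fits on the compared groups alone and the removal of single arrays or of WT_control 3 with arf2-6_control 2 gave 20 or 21 further values per comparison. The IAA calls of *GH3.3*, *WES1* and *GH3.1* held in every one, at 5.48 to 6.04, 3.88 to 4.60 and 2.69 to 2.76 log2 in the wild type and 5.64 to 6.26, 4.31 to 4.92 and 2.81 to 2.98 log2 in *arf2-6*. Deviations of same-numbered arrays of different groups correlated at -0.50 to 0.49 over 18 pairs, those of different-numbered arrays at -0.53 to 0.63. Between control and IAA arrays of the wild type, same-numbered ones correlated at -0.08 to 0.49 and the others at -0.53 to 0.33. In *arf2-6* these were 0.03 to 0.30 and -0.31 to 0.05. Whether the numbers pair the arrays within a genotype was not tested. With the replicate block, which shares its numbers across genotypes, the adjusted p of the IAA calls of *GH3.3*, *WES1* and *GH3.1* was at most 1.5e-04. No GH3 call changed with it. The number of GH3 genes called for the averaged genotype effect ran from 0 to 1 with single arrays left out, the 1 being *GH3.17* without WT_control 1.

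Differences that were not called changed sign 19 times, and called ones 0 times. With array weights *WES1* in controls was at 0.041 log2 and the interaction of *GH3.17* at -0.061, which was -0.057 without both control arrays. With single arrays left out, *GH3.17* ran from -0.18 to 0.20 log2 for IAA in the wild type and -0.040 to 0.15 averaged, and its interaction from -0.10 to 0.28. The *GH3.3* interaction ran from -0.14 to 0.48, its genotype effect from -0.56 to 0.066 in controls and from -0.25 to 0.019 with IAA. *WES1* ran from -0.50 to 0.24 between genotypes in controls and from -0.12 to 0.25 averaged. The cause was not tested.

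The count over all probe sets moved more. It was 622 to 1303 for IAA in the wild type (1194 as reported), 756 to 1862 in *arf2-6* (1210), 2 to 559 between genotypes in controls (122), 325 to 3128 with IAA (1249), 1401 to 3985 averaged (2256) and 0 to 46 for the interaction (16). The replicate block gave 235 in controls and 6 for the interaction.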
